A study of Homo sapiens with 2 samples.

Results

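The miR-181 family was described in hCMEC/D3 cells from small RNA sequencing of 2 libraries. This immortalised line was derived from the endothelium of human brain microvessels and serves in culture studies of the blood-brain barrier. The labels number these libraries replicate 2 and replicate 8. They name no treatment, time point or second group, and they do not say whether the replicates came from separate cultures, so the spread between them may be technical. The members were all table rows, from both arms, of 6 hairpins: hsa-mir-181a-1, hsa-mir-181a-2, hsa-mir-181b-1, hsa-mir-181b-2, hsa-mir-181c and hsa-mir-181d (written without hsa- from here on). They made up 10 of 2363 rows and 8 of 2042 mature names. That choice went by hairpin name and not by a measured value, though earlier results of these data were known.

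A miRNA hairpin is cut by Drosha and Dicer into a short duplex. One strand (the 5p or the 3p arm) is usually kept by an Argonaute protein and pairs with messenger RNAs through its seed, while the other is mostly degraded. The miR-181 hairpins lie in pairs, an a-type or c-type hairpin beside a b-type or d-type hairpin, and each pair can be cut from 1 primary transcript. The family is best known from lymphocytes, where miR-181a tunes antigen receptor signalling. In endothelial cells miR-181b has been studied as a brake on NF-kappaB signalling through importin-alpha3.

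The 4 listed 5p arms are shown first because they share the seed that defines the family and differ at few other bases, which bears on how far their counts can be told apart. The sequences are mature miRNAs from RefSeq (GRCh38.p14 table), written 5′ to 3′ with the seed, bases 2 to 8, in capitals. All 8 member names matched that table. The name miR-181d carries no arm in the deposited file and was matched to the 5p arm.
miR-181a-5p: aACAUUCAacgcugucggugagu
miR-181b-5p: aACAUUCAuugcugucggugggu
miR-181c-5p: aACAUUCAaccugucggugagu
miR-181d: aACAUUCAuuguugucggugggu

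With positions counted from 1 at the 5′ end, miR-181a-5p and miR-181b-5p differed by 3 substitutions, A9U, C10U and A21G (the base of miR-181a-5p first). The pair miR-181b-5p and miR-181d differed by the single substitution C12U, with the base of miR-181b-5p first. The pair miR-181a-5p and miR-181c-5p lay at an edit distance of 1, with lengths of 23 and 22 bases. A read with 1 mismatch or a lost base could therefore be counted under the other name of either pair. The mismatches the authors allowed are not given in the sources used here, and how far such reads enter the counts was not tested.

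The 3p arms are shown because each belongs by name to 1 hairpin, and no 2 of the 4 share a seed.
miR-181a-3p: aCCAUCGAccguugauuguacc
miR-181a-2-3p: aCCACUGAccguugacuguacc
miR-181b-3p: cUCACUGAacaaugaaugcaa
miR-181c-3p: aACCAUCGaccguugaguggac

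The arms miR-181a-3p (from mir-181a-1) and miR-181a-2-3p (from mir-181a-2) differed by U5C, C6U and U16C, counted in the same way with the base of miR-181a-3p first. Of these, 2 lie inside the seed. The opposite arms miR-181b-2-3p and miR-181d-3p were not analysed here. In RefSeq miR-181b-2-3p has the same seed as miR-181b-3p, so that seed does not tell the b-type hairpins apart.

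The family occupies 3 loci. On chromosome 1 (GRCh37, the same build as the hg19 named in the submitters' processing notes) MIR181A1 lies at 198828173 to 198828282 and MIR181B1 at 198828002 to 198828111, both on the minus strand and 61 bases apart. Both are intronic in the lncRNA gene MIR181A1HG on the same strand: neither of the 2 transcripts that span them has an exon there. On chromosome 9 MIR181A2 lies at 127454721 to 127454830 and MIR181B2 at 127455989 to 127456077, on the plus strand and 1158 bases apart. They are in an intron of the lncRNA gene MIR181A2HG on the same strand, and in introns of NR6A1, a nuclear receptor gene, on the opposite strand. On chromosome 19 MIR181C lies at 13985513 to 13985622 and MIR181D at 13985689 to 13985825, on the plus strand and 66 bases apart, in introns of NANOS3, a gene for an RNA-binding protein of germ cells, on the same strand.

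The libraries held 2721287 counts in replicate 2 and 2727675 in replicate 8 after one row was kept per mature name. Levels are given in CPM (counts scaled to these totals), in which 3 counts correspond to 1.10 CPM in either library. Reads carry no molecular identifiers, and intervals on counts cover counting error only. Adaptor ligation differs between RNA sequences, so levels of different miRNAs are less comparable than those of the same miRNA in the 2 libraries. Of the endothelial markers, miR-126-3p was at 109395 and 115057 CPM in replicates 2 and 8 and miR-126-5p was at 709 and 678 CPM. Of 7 blood-cell markers, 3 had no count in either library (miR-142-3p, miR-144-3p and miR-223-3p). Another 3 were detected, the highest being miR-486-5p at 309 and 208 CPM, and the list summed to 553 and 400 CPM. The 3 neuronal markers summed to 47.8 and 35.9 CPM, the 2 mural markers to 835 and 393 CPM and the 6 epithelial markers to 92.2 and 42.2 CPM. The lowest epithelial marker, miR-141-3p, was at 0 and the highest, miR-200c-3p, was at 43.4 and 31.2 CPM. The summed levels of these 4 lists were lower in replicate 8, and their part in the miR-181 values was not tested.

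The family was abundant and was made up almost wholly of miR-181a-5p and miR-181b-5p. Its 8 names held 78495 counts in replicate 2, or 2.88% of all counts (95% Wilson interval 2.86 to 2.90), and 74733 counts in replicate 8, or 2.74% (2.72 to 2.76). The mean was 2.81% ± 0.102 (SD, n = 2). It was 4.73% when rows of the same name were added up over hairpins in the whole table, and whether the authors counted a read at each hairpin or divided it is not given in the sources used here. The names with the shared 5p seed held 99.1% of the family in replicate 2 and 98.9% in replicate 8. In RefSeq 1 further human miRNA, miR-4262, has the same seed, in the sequence gACAUUCAgacuaccug. It had 0 counts in both libraries, which allows up to 1.10 CPM.

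The highest member was miR-181a-5p, with 59634 counts (21914 CPM) in replicate 2 and 57559 counts (21102 CPM) in replicate 8. It ranked 13th among all mature names in replicate 2 and 12th in replicate 8, and made up 76.5% ± 0.741 of the family (SD, n = 2). It was followed by miR-181b-5p, with 16987 counts (6242 CPM) and 15274 counts (5600 CPM), which ranked 31st and 32nd and made up 21.0% ± 0.850. The mean level of miR-181a-5p was 3.63 times that of miR-181b-5p, and the values of the 2 names did not overlap between the libraries.

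The remaining members were lower by an order of magnitude or more. The level of miR-181d, the d-type hairpin's 5p arm, was 365 CPM in replicate 2 (992 counts) and 361 CPM in replicate 8 (984 counts), so the libraries were nearly equal for it. The mean level of miR-181b-5p was 16.3 times that of miR-181d, which differs from it by 1 base. The level of miR-181a-3p was 205 and 235 CPM, from 558 and 642 counts. For miR-181c-5p the level was 55.1 CPM in replicate 2 and 45.8 CPM in replicate 8, from 150 and 125 counts. For miR-181c-3p it was 51.4 and 39.96 CPM, from 140 and 109 counts. These arms of mir-181c were the only neighbours in the order of levels whose ranges over the libraries overlapped. The lowest members were miR-181a-2-3p at 11.4 and 12.1 CPM, from 31 and 33 counts, and miR-181b-3p at 1.10 and 2.57 CPM, from 3 and 7 counts. At 10 or more counts in both libraries, 7 of the 8 members were detected, and miR-181b-3p was not. Over all names, 543 of 2042 passed that threshold.

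**Figure D1:**
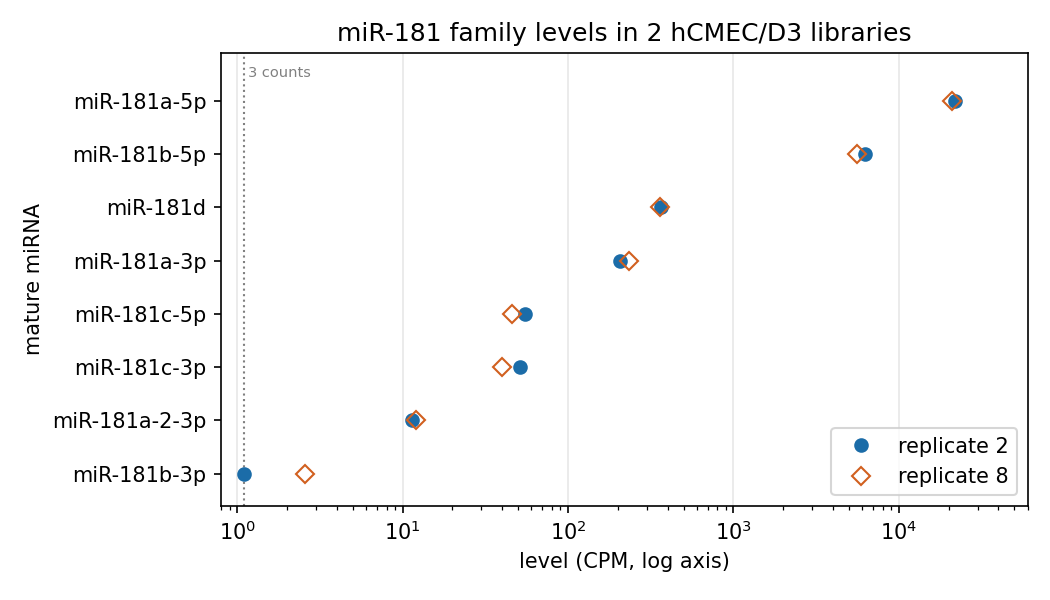
Level of each of the 8 miR-181 names in CPM (log axis) in replicate 2 (filled circles) and replicate 8 (open diamonds), with a dotted line at the level of 3 counts. The names span from 1.10 CPM for miR-181b-3p to 21914 CPM for miR-181a-5p, and the libraries lie close together for every name except miR-181b-3p.

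The loci were compared by arms that belong to 1 hairpin, because the mature sequence of miR-181a-5p comes from both chromosome 1 and chromosome 9, as does that of miR-181b-5p. The hairpins of miR-181a are printed with the mature arms in capitals to show what they share and where they part. Both RefSeq hairpins, like the other 3 in that table, were identical to the GRCh37 genome at the positions above.
mir-181a-1: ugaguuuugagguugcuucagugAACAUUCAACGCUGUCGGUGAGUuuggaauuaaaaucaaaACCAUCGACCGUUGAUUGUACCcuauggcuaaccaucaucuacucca
mir-181a-2: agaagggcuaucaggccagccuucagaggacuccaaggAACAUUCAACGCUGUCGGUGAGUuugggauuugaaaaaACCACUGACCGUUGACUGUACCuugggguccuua

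Around the 5p arm these hairpins were identical over 28 bases, 1 before and 4 after the arm of 23. The deposited rows of miR-181a-5p were nearly the same for both hairpins: in replicate 2 the mir-181a-1 row held 59634 counts and the mir-181a-2 row 59630, and in replicate 8 they held 57559 and 57554. The share of each locus in miR-181a-5p cannot be told apart from them.

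By the unique 3p arms of the miR-181a hairpins, mir-181a-1 on chromosome 1 was the higher. Replicate 2 had 558 counts of miR-181a-3p against 31 of miR-181a-2-3p, a ratio of 18.0 (95% exact interval 12.5 to 26.7). Replicate 8 had 642 against 33, a ratio of 19.5 (13.7 to 28.5). The mean ratio was 18.7 ± 1.03 (SD, n = 2), so the gap between the arms was much larger than the spread between the libraries. The ratio compares 2 different sequences, and whether ligation or strand retention adds to it was not tested. It covers the miR-181a hairpins and not the whole loci. The other listed 3p arm of chromosome 1, miR-181b-3p, was below miR-181a-2-3p, at 3 counts in replicate 2 and 7 in replicate 8.

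The same comparison was made for every mature name in the table that comes from exactly 2 hairpins whose opposite arms are each unique and hold at least 50 counts in sum. There were 11 such cases. The fold between the higher and the lower arm, over both libraries, had a median of 37.1, and it was over 10 in 7 of the 11. The case of miR-181a, at 18.8-fold, was the 7th in that order. The lowest, miR-365, was at 1.47-fold and the highest, miR-92a, was at least 439-fold, against a floor of 3 counts over both libraries. The imbalance of the miR-181a arms thus lay within the range of other paralogous hairpins.

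**Figure D2:**
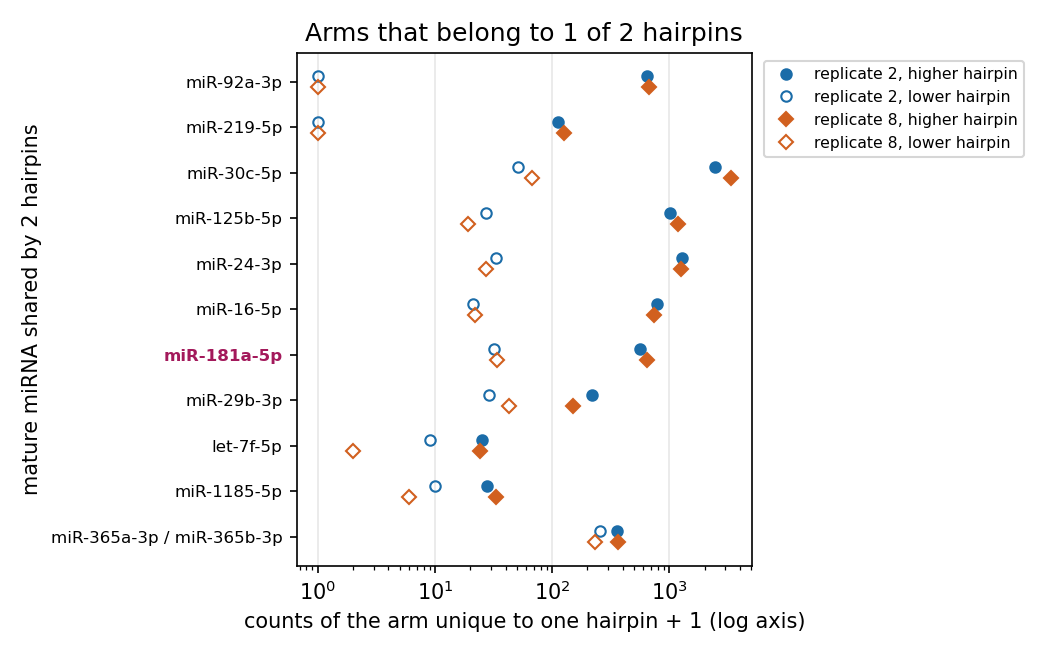
Counts + 1 (log axis) of the arms unique to 1 hairpin for 11 mature names that come from 2 hairpins, ordered by the fold between the arms, with filled symbols for the higher and open symbols for the lower hairpin (circles, replicate 2; diamonds, replicate 8). For miR-181a-5p, in bold, the arms lie at 558 and 642 counts against 31 and 33 counts, the 7th widest gap of the 11.

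Within the chromosome 1 pair the 3p arms were also far apart. Replicate 2 had 3 counts of miR-181b-3p against 558 of miR-181a-3p, a ratio of 186 (95% exact interval 63.3 to 905) for the latter over the former. Replicate 8 had 7 against 642, a ratio of 91.7 (44.3 to 229), so the intervals of the libraries overlapped. The 5p arms of the same types differed only 3.63-fold, although these also take reads from chromosome 9.

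The rows of miR-181b-5p, unlike those of miR-181a-5p, were not the same for both hairpins. The mir-181b-2 row on chromosome 9 held 16987 counts in replicate 2 and 15274 in replicate 8, and the mir-181b-1 row on chromosome 1 held 16131 and 14547. The lower row was thus 94.96% of the higher in replicate 2 and 95.2% in replicate 8, a gap of 856 and 727 counts with the chromosome 9 row above in both libraries. Among 48 mature names with several rows and at least 100 counts, the median of this percentage was 99.8, and miR-181b-5p was the 7th lowest while miR-181a-5p ranked 30th from the lowest. The table does not say which reads make up the gap, and its cause was not tested. The gap goes the other way from the unique arms of miR-181a, in which chromosome 1 was the higher. Both rows carry the same mature name, so the gap is not read as a difference in level between the loci.

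The chromosome 19 pair was a small part of the family. Its 3 names, miR-181c-5p, miR-181c-3p and miR-181d, took 1.63% of the family counts in either library, with a 95% Wilson interval of 1.55 to 1.72 in replicate 2 and of 1.54 to 1.72 in replicate 8. With the repeated rows of miR-181a-5p and miR-181b-5p added up, this share was 0.830%. Within the pair miR-181d was the higher: its counts were 6.61 times those of miR-181c-5p in replicate 2 (95% exact interval 5.56 to 7.91) and 7.87 times in replicate 8 (6.53 to 9.56). Of the counts of miR-181b-5p and miR-181d together, miR-181d held only 5.52% in replicate 2 and 6.05% in replicate 8. Whether reads of miR-181b-5p with a mismatch enter the counts of miR-181d was not tested. For the names pooled over chromosomes 1 and 9 the a-type 5p arm was above the b-type 5p arm, an order that was not measured for either locus alone. Among the 3p arms, miR-181a-3p was 3.99 times miR-181c-3p in replicate 2 (3.31 to 4.83) and 5.89 times in replicate 8 (4.80 to 7.28).

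Arm use could be measured for 4 of the 6 hairpins, since mir-181b-2 and mir-181d have 1 row each here, and mir-181c had the most even arms of the 4. Of its counts, the 5p arm held 51.7% in replicate 2, with a 95% Wilson interval of 46.0 to 57.4. In replicate 8 it held 53.4% (47.0 to 59.7). Both intervals contain an even split, so neither library showed a preferred arm at this depth. Its hairpin is printed with both arms in capitals because it is the member from which both strands were recovered in near-equal number.
mir-181c: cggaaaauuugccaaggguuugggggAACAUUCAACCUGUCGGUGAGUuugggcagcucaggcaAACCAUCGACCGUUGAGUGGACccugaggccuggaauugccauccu

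In mir-181a-1 the 5p arm held 99.1% in replicate 2 and 98.9% in replicate 8, in mir-181a-2 it held 99.95% and 99.94%, and in mir-181b-1 it held 99.98% and 99.95%. These shares can be too high, because the 5p counts can contain reads of the paralogous hairpin. They are upper limits only if a shared read was counted in full at each hairpin. If shared reads were divided between the hairpins, a share could also be too low. Both arms of mir-181c have names of their own, but miR-181c-5p lies 1 edit from miR-181a-5p and had only 0.251% of the counts of these 2 names in replicate 2 and 0.217% in replicate 8. Whether stray reads of miR-181a-5p enter its 5p share was not tested. In all, 212 hairpins had both arms listed and at least 50 counts over them in each library. One arm held over 90% in both libraries in 144 of these, and the 5p share lay between 40 and 60% in both libraries in 8. Ranked by the larger distance from an even split in the 2 libraries, mir-181c was the third nearest of the 212.

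The arm shares were compared between the libraries for every such hairpin with Fisher's exact test and Benjamini-Hochberg adjustment, and 18.9% of the 212 passed at 0.05. Of the 4 miR-181 hairpins tested, 1 passed. In mir-181a-1 the 5p share fell by 0.176 percentage points from replicate 2 to replicate 8 (Fisher's exact test, adjusted p = 0.018), a shift below the median absolute shift of 0.758 points over all hairpins. For mir-181c the shift was 1.69 points (Fisher's exact test, adjusted p = 0.998), for mir-181a-2 it was -0.00534 points and for mir-181b-1 it was -0.0295 points.

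**Figure D3:**
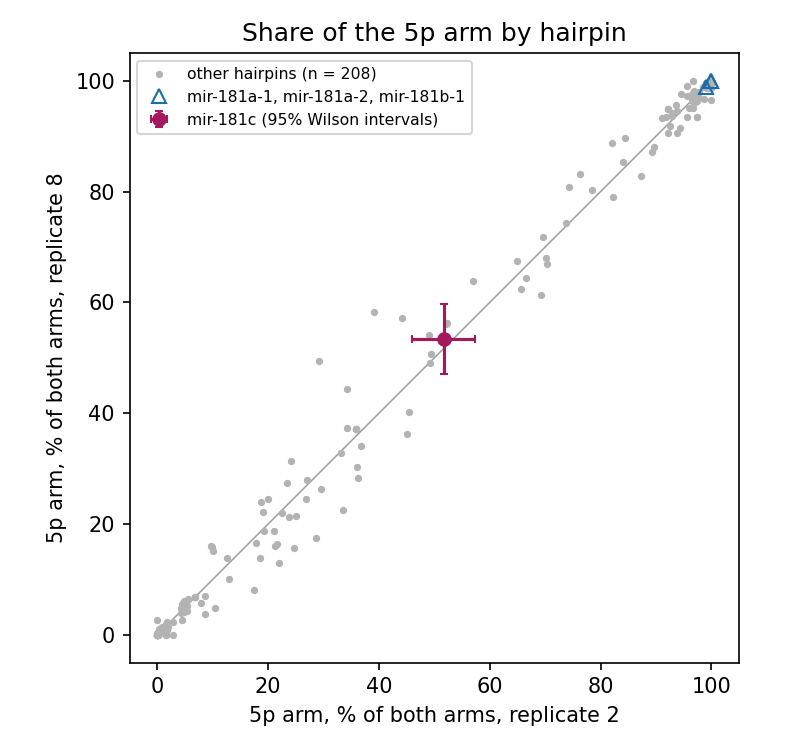
Share of the 5p arm in the counts of both arms of a hairpin, in percent, in replicate 2 (horizontal axis) and replicate 8 (vertical axis), for 212 hairpins, with a line where the libraries are equal. The hairpin mir-181c, with 95% Wilson intervals, lies near the centre at 51.7 and 53.4%, and the 3 other miR-181 hairpins (triangles) lie above 98% in both libraries.

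Between the libraries the members moved little. With library totals as the scale, 2 of the 8 members passed an exact binomial test adjusted over all 695 names tested, both lower in replicate 8, where 34.2% of all names passed, 10.8% higher and 23.5% lower. With 8 members this count lies near the background in its direction, and it is not a result about the family. For miR-181b-5p the log2 ratio of replicate 8 over replicate 2 was -0.16 (95% interval -0.19 to -0.13, exact binomial adjusted p = 3.1e-21). It stayed negative with TMM sizes, at -0.07 (exact binomial adjusted p = 8.7e-05), and with DESeq2 size factors, at -0.04 (exact binomial adjusted p = 0.026).

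For miR-181a-5p the direction depended on the scaling. Its log2 ratio was -0.054 with library totals (95% interval -0.07 to -0.04, exact binomial adjusted p = 9.6e-10), 0.032 with TMM sizes (exact binomial adjusted p = 0.00067) and 0.059 with DESeq2 size factors (exact binomial adjusted p = 2.6e-11). These scalings raise every log2 ratio by 0.09 and 0.11, and with library totals the median over all 695 names was -0.11. The test passed at such small ratios because the counts are high, and it holds no spread between replicates.

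For miR-181a-3p the log2 ratio was 0.20 (95% interval 0.03 to 0.37, exact binomial adjusted p = 0.052) with library totals, and it passed with TMM sizes at 0.29 (exact binomial adjusted p = 0.0029) and with DESeq2 size factors at 0.31 (exact binomial adjusted p = 0.00093). With TMM sizes 3 of 8 members passed, 2 higher and 1 lower in replicate 8, against 32.2% of all names, 15.1% higher and 17.1% lower. With DESeq2 size factors the same 3 members passed in the same directions, against 31.9% of all names, 16.5% higher and 15.4% lower. These counts too are read as no result about the family. The members miR-181d, miR-181c-5p, miR-181c-3p, miR-181a-2-3p and miR-181b-3p did not pass under any of the 3 scalings. Their log2 ratios with library totals were -0.02, -0.27, -0.36, 0.09 and 1.10, the last from 3 and 7 counts with a 95% interval of -0.91 to 3.80. The median absolute log2 ratio was 0.18 for the 6 members with at least 100 summed counts, beside 0.21 for all 367 such names.

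**Figure D4:**
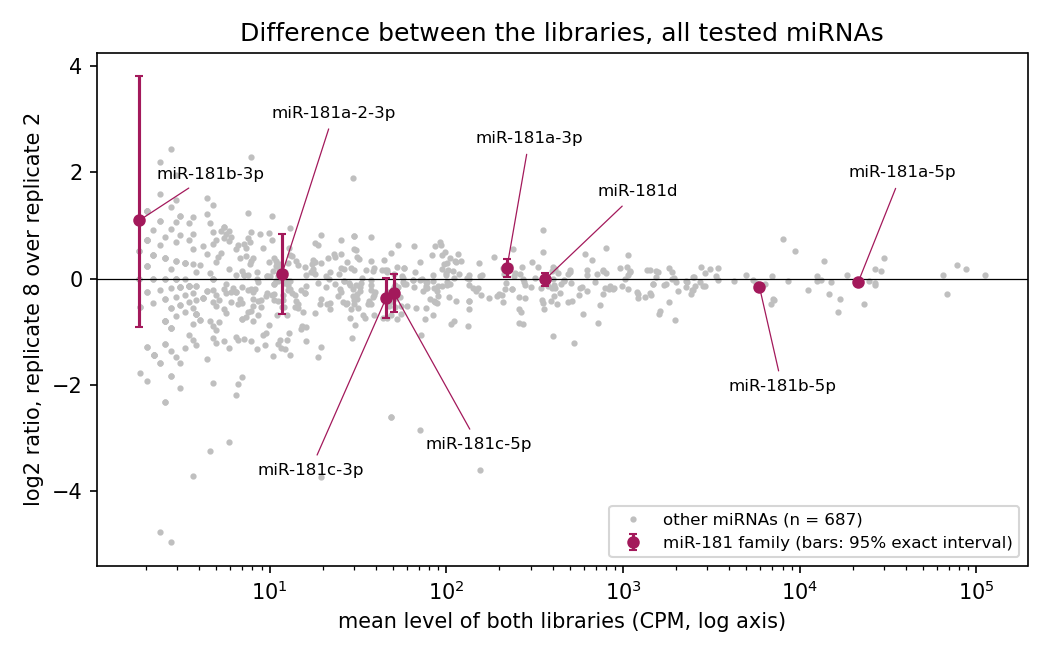
Log2 ratio of replicate 8 over replicate 2 with library totals against the mean level in CPM (log axis) for the 695 names tested, with the miR-181 members labelled and their 95% exact intervals. The 7 detected members lie between -0.36 and 0.20, within the cloud of other miRNAs of like level.

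The names nearest in level to the main members were found over the 2 libraries, by the larger of the 2 absolute differences in log2(CPM + 1). The nearest to miR-181a-5p were let-7b-5p (difference 0.20, mean 24621 CPM), miR-26a-5p (0.27, mean 18637 CPM) and miR-320a (0.29, mean 23080 CPM). The nearest to miR-181b-5p were miR-25-3p (0.10, mean 5662 CPM), miR-146a-5p (0.13, mean 6332 CPM) and miR-27b-3p (0.19, mean 5426 CPM). Likeness over 2 libraries is a likeness of level only.

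The miRNA miR-181b was set beside 14 miRNAs known from endothelial inflammatory signalling through NF-kappaB. All 14 were detected, from 50.8 CPM for miR-17-3p to 112226 CPM for miR-126-3p. The latter was the highest of all names, so any name above 50.8 CPM lies inside that range. Inside it lay miR-181b-5p at 5921 ± 454 CPM (SD, n = 2). It was close to miR-146a-5p, which targets signalling adaptors upstream of NF-kappaB and was at 6332 ± 318 CPM. With library totals 6 of the 14 were higher and 6 lower in replicate 8 by the exact binomial test with adjustment over the whole table, beside 10.8% higher and 23.5% lower over all names. With TMM sizes 7 were higher and 4 lower, beside 15.1% and 17.1% over all names. The list summed to 288362 CPM in replicate 2 and 306770 CPM in replicate 8. At high counts the test passes small ratios, so these numbers are read as no result about the list. The median log2 ratio of the list was 0.02, beside -0.11 over all names tested.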

How the data were processed

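Small RNA was sequenced from 2 libraries of hCMEC/D3 (replicates 2 and 8, 1 group). Per the labels' protocols, adaptors were ligated to both RNA ends, the cDNA was amplified by PCR and libraries were size-selected on a gel. The submitters' processing notes list CASAVA 1.9, FastQC, cutadapt, Bowtie 0.12.7 and hg19. The counter, the mismatches allowed and the miRBase release are not given in the sources used here. The authors deposited raw counts per pair of mature name and hairpin, per the file headers. The deposited RPM values are these counts over a constant of 3180045 or 3205752.

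Where a name had several rows, that with the largest mean count was kept, and CPM used the resulting totals. Names with at least 10 summed counts entered a two-sided exact binomial test between the libraries, and hairpins Fisher's exact test on arms, each with Benjamini-Hochberg adjustment at 0.05 (scipy 1.17.1). Log2 ratios had 0.5 counts added. Library scaling came from edgeR 4.0.16 (TMM) and DESeq2 1.42.0 (size factors). With 1 group, edgeR's test between conditions was not run. Both tests were tried on simulated data with counting error only, which do not cover spread between replicates.

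Named were all members, names sharing the 5p seed, the 3 nearest names in level to each of 2 members, and the highest and lowest of a list. Marker values and comparison cases were added after their values were seen. The members and lists were chosen with earlier results of these data known. Positions are from GENCODE mapped to GRCh37.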

Additional observations from a re-analysis of the deposited data

How the results depend on the processing

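Over 6 summary results, 24 values were recomputed, of which 21 stayed close to those reported and 3 moved. For the shares and the locus ratio, close meant within the SD of the libraries. Leaving out either library could therefore not count as a move for them. Adding up repeated rows could not change the locus ratio, since each of its arms has a single row. Adding up the repeated rows gave a family share of 4.73%, and miR-181c and miR-181d then took 0.830% of the family. Whether the shared rows hold the same reads was not tested. On the deposited RPM denominator the family share was 2.40%, since the denominators are larger than the totals used here. Over the 8 log2 ratios, 32 values were recomputed, with 1 or 5 counts added and with TMM sizes or DESeq2 size factors. The added counts entered the ratio and not the test, so adding them could not change which names passed. The ratio of miR-181a-5p turned from -0.054 to 0.032 with TMM sizes and to 0.059 with DESeq2 size factors, and 28 values kept their side of the threshold. The remaining 2 were miR-181a-3p, which passed under either scaling. It also passed when only names with at least 100 summed counts were tested, which adjusts over fewer names, so that 3 members passed in place of 2. Leaving out either library gave a family share between 2.74% and 2.88% and a ratio of miR-181a-2-3p to miR-181a-3p between 0.0514 and 0.0556. Without 1 library no test between libraries can be made. The row with the lowest mean count, chosen after seeing the data, gave a family share of 2.79%. No paired analysis was possible because the series has 1 group. Depth limits miR-181b-3p most, at 3 and 7 counts.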
